A study of Mus musculus with 12 samples.

Results

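The genes described here are 10 genes of the endothelial barrier and of leukocyte adhesion, taken by symbol from the 25655 genes of the deposited count tables: Sele, Selp, Icam1, Vcam1, Pecam1, Cdh5, Cldn5, Ocln, Plvap and Vwf. All 10 were found. They were followed in whole retinas of C57BL/6J mice, labelled as 8 to 10 weeks old, that were collected 2 days after optic nerve crush (ONC). Every animal had the crush, so no group shows the uninjured retina, and groups differ in what was injected into the vitreous. PBS was the control. Fluvastatin is a statin, an inhibitor of HMG-CoA reductase, and matrix-bound nanovesicles (MBV) are vesicles isolated from extracellular matrix, here of porcine urinary bladder. The series also holds a combined treatment, which was not analysed here because its count columns carry no library name. This left 9 libraries, 3 each for PBS, fluvastatin and MBV, and the sources do not say whether a library holds 1 retina or several.

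Leukocytes leave the blood in steps that use these molecules. Selectins on the activated endothelium catch passing leukocytes, ICAM-1 and VCAM-1 then bind leukocyte integrins for firm adhesion, and PECAM-1 at cell borders takes part in the passage between endothelial cells. The vessels of the inner retina form the inner blood-retinal barrier. Their endothelial cells are joined by adherens junctions, built on VE-cadherin (Cdh5), and by tight junctions with claudin-5 (Cldn5) and occludin (Ocln). PLVAP forms the diaphragms of fenestrated vessels, such as those of the choroid, and is low in barrier endothelium. Von Willebrand factor (Vwf), which is stored in endothelial Weibel-Palade bodies together with P-selectin, tethers platelets to the vessel wall.

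Most of the 10 genes did not pass the test in any comparison. Vcam1 was 1.40-fold lower with fluvastatin when compared to PBS, Cdh5 was 1.62-fold and Vwf 1.70-fold higher with MBV, and no member passed between MBV and fluvastatin. Fold changes and adjusted p-values (FDR) come from the quasi-likelihood test of edgeR, adjusted by Benjamini-Hochberg over all genes tested, and a gene was called at an FDR under 0.05. Levels are CPM (counts scaled to the size of the library), normalized by TMM over the 9 libraries. In RNA from a whole tissue, fewer cells of a type and less RNA per cell cannot be told apart.

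The stretches before the start of Sele, Icam1 and Cldn5 are shown because these genes differ widely in level, with Sele near the limit of detection, Icam1 low and Cldn5 at the highest level per kilobase of the 10 members. The RefSeq promoter table (GRCm38.p6) holds entries for 5 of the 10 members, the others being Selp and Ocln. Each line gives the 250 bases before the start, 5′ to 3′ on the strand of the gene, at chr1:164047984-164048233 for Sele, chr9:21015690-21015939 for Icam1 and chr16:18776597-18776846 for Cldn5, all on the + strand. Capitals mark matches to the motifs searched.
Sele: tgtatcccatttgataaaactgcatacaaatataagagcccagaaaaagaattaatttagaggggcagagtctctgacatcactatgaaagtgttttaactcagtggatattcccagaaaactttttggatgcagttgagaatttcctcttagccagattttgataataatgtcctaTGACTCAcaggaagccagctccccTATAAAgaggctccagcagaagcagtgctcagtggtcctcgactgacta
Icam1: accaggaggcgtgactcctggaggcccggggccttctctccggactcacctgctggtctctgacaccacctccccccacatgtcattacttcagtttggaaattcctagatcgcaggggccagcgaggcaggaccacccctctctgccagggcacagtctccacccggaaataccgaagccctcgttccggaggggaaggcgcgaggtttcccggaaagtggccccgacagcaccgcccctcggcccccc
Cldn5: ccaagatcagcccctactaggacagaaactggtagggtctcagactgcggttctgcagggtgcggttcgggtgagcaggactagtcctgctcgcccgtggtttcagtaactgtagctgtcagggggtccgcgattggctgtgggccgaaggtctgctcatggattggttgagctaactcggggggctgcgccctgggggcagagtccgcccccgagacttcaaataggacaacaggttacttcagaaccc

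Motifs were searched on both strands. NF-kB was searched as GGGRNNYYCC, where R is A or G, Y is C or T and N is any base. The AP-1 site was TGANTCA, which reads the same on either strand. The others were the core GGAAGT of ETS factors, the AGATAA bound by GATA factors, the ACAAAG of SOX factors, and the box TATAAA of core promoters. In Sele an AP-1 match lay 73 to 67 bases before the start and a match to TATAAA 49 to 44 bases before it. Selp, the other selectin, had an AP-1 match 139 to 133 bases before its start, and none of the motifs matched in the windows of Icam1, Ocln and Cldn5. Of 32851 windows of this length in the table, 6.75% held the AP-1 letters and 12.4% those of the core promoter box, against 7.25% for NF-kB, 19.7% for ETS, 9.99% for GATA and 16.5% for SOX. These matches describe the letters of the windows only, and a site that departs from the letters searched was not marked.

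The libraries held 21349516 to 30992040 counts on genes. In the sample labels, the library numbers form 2 sets, the first shared by PBS with the combined treatment, the second by fluvastatin with MBV. Set and treatment therefore cannot be told apart when fluvastatin or MBV is compared to PBS, whereas MBV and fluvastatin share a set. Both comparisons to PBS use the same 3 PBS libraries. Of 18818 genes tested, 19.6% were called with fluvastatin when compared to PBS. Of 18897 genes, 26.1% were called with MBV. Between MBV and fluvastatin, 0.0588% of 18721 genes differed. Against these shares, 1 of 10 members was called with fluvastatin, 2 of 10 with MBV and 0 of 10 between MBV and fluvastatin, so in the comparisons to PBS the share called was no higher than over all genes. Between MBV and fluvastatin, edgeR gave 2 members, Vwf and Ocln, an unadjusted p under 0.05, and DESeq2 called 1, Vwf. The median log2 fold change of the 10 members was 0.14 with fluvastatin and 0.39 with MBV, beside -0.01 and 0.01 over all genes tested, and it was 0.24 between MBV and fluvastatin, beside 0.01. These medians include both selectins, whose values rest on a few counts. The strand setting of the counting is not given in the sources used here, and in GENCODE all members other than Pecam1 and Cldn5 overlap a gene on the other strand, which is Gtpbp3 for Plvap and a gene with only a Gm number for the others, so reads from those genes cannot be told apart from the members' own.

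Markers of the labelled tissue were abundant, with 10 retinal neuron markers summing to 32180 to 34350 CPM in PBS, 27760 to 29210 CPM with fluvastatin and 21310 to 29270 CPM with MBV. All 20 endothelial markers of a list were detected, none of them at 3 counts or fewer in every library. Their summed level was 432 to 491 CPM in PBS, 394 to 432 CPM with fluvastatin and 402 to 469 CPM with MBV. The VEGF receptors Kdr and Flt1 made up 81.9% of that sum. Without these receptors, a split made after the values were seen, the other 18 markers summed to 63.8 to 79.2 CPM in PBS, 64.4 to 91.6 CPM with fluvastatin and 71.7 to 99.3 CPM with MBV, and the groups overlapped. With fluvastatin, 2 of the 20 endothelial markers rose and 2 fell. Over all genes tested, 19.6% were called with fluvastatin and 26.1% with MBV. The fallers in edgeR were Flt1 (log2 fold change -0.29, FDR 0.00551) and Clec14a (-0.75, FDR 0.0355). Eng, a TGF-beta co-receptor, and Robo4, an endothelial guidance receptor, were higher with fluvastatin (0.89 with an FDR of 0.0485, and 1.08 with an FDR of 0.0403) and with MBV (0.79 with an FDR of 0.00919, and 1.08 with an FDR of 0.0159), and edgeR called only these with MBV. Kdr, the most abundant of these markers, was not called in edgeR (-0.21 with an FDR of 0.0549 for fluvastatin, and -0.22 with an FDR of 0.0860 for MBV) and was called lower in DESeq2 (adjusted p 0.0281 and 0.0499). Tie1 was called higher with MBV in DESeq2 only (0.66, adjusted p 0.0479). Eng overlaps Fpgs on the other strand, so its counts are uncertain.

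The selectins were near or at the limit of detection. Sele (E-selectin, chromosome 1 of GRCm39, 163875803 to 163885246) had 0, 0 and 5 counts in PBS replicates 1 to 3, 1, 4 and 6 counts with fluvastatin, and 1, 6 and 2 counts with MBV. The groups overlapped in every comparison. Selp (P-selectin, chromosome 1, 163942833 to 163977595) had 9 counts in all, in 6 of 9 libraries, and never more than 2 in a library. Taking 3 counts as the limit, a level of 0.0975 to 0.137 CPM would have gone unseen, depending on the library, so a change of Selp was not detectable at this depth and no fold is given. This limit covers counting error only. The log2 fold change of Sele was 1.27 with fluvastatin and 1.03 with MBV when compared to PBS, with 95% intervals of -1.22 to 3.76 and -1.76 to 3.83, so a change of several fold in either direction lies within the error. Over the libraries left out, these values ran from 0.67 to 5.04 and from 0.0105 to 4.79. The highest were those without PBS replicate 3, where the PBS libraries that remain had 0 counts and the fitted value is no bound (FDR 0.0896 and 0.125).

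**Figure D1:**
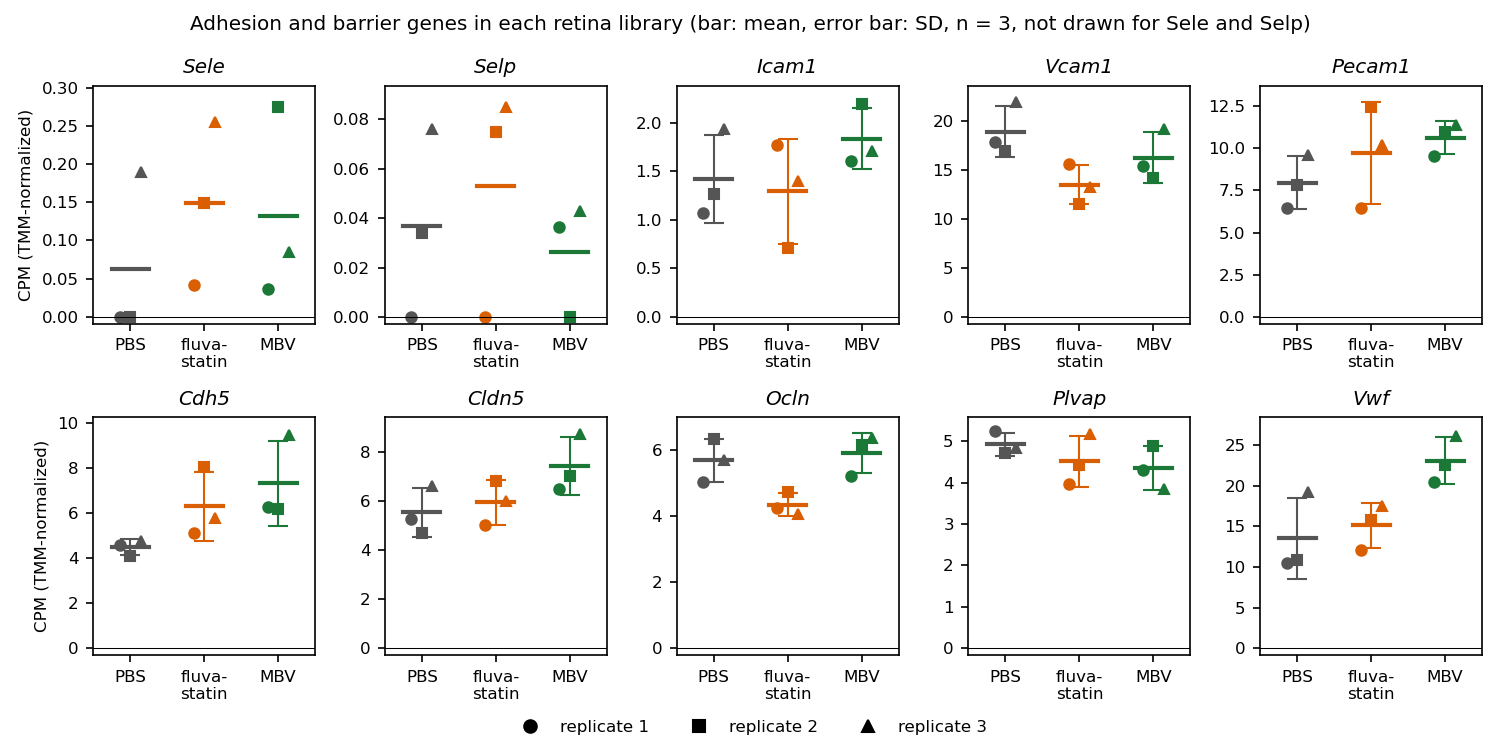
Level of each gene in each library, in CPM normalized by TMM, for PBS, fluvastatin and MBV (n = 3 each). Symbols give the replicate, the horizontal bar the group mean and the error bar the SD, which is not drawn for Sele and Selp because of their few counts. Every fluvastatin library lies below every PBS library for Vcam1 and Ocln, and every MBV library lies above every PBS library for Cdh5 and Vwf.

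Vcam1 encodes the endothelial ligand of the integrin VLA-4 and is not restricted to endothelium. It lies on chromosome 3, 115903598 to 115923337, on the - strand. Its level was 17.8, 16.9 and 21.9 CPM in PBS replicates 1 to 3, 15.6, 11.6 and 13.3 CPM with fluvastatin, and 15.4, 14.1 and 19.1 CPM with MBV. The highest fluvastatin library was thus below the lowest PBS library, while the MBV libraries spanned values of both other groups. When compared to PBS, Vcam1 fell by 0.49 on the log2 scale with fluvastatin (standard error 0.124, FDR 0.0203, edgeR). With MBV its log2 fold change was -0.23 (95% interval -0.51 to 0.06, FDR 0.227). The call with fluvastatin was lost without PBS replicate 1 (FDR 0.0510) or 3 (FDR 0.0573), and without fluvastatin replicate 2 (FDR 0.0918) or 3 (FDR 0.0621), at log2 fold changes of -0.53, -0.37, -0.39 and -0.48. Without MBV replicate 3, the library with the highest summed monocyte markers, Vcam1 was lower with MBV as well (-0.36, FDR 0.0255). Müller glia and astrocyte markers were lower in sum with either treatment. Their summed level was 2822 to 3428 CPM in PBS, 1715 to 2782 CPM with fluvastatin and 1547 to 2684 CPM with MBV. Of the 8 glial markers, 4 fell with fluvastatin (Rlbp1, Slc1a3, Aqp4 and Glul) in edgeR and none rose. DESeq2 called only Rlbp1 and Slc1a3 of them, with an adjusted p of 0.109 for Aqp4 and 0.131 for Glul. With MBV, Rlbp1 (-0.39, FDR 0.00056) and Aqp4 (-0.61, FDR 0.0057) fell in edgeR and none rose. The shares called over all genes were 19.6% with fluvastatin and 26.1% with MBV. The log2 fold change was above 0 for 3 of the 8 with fluvastatin and for 5 with MBV. Glul alone was at 2332 CPM in PBS and so made up most of the sum. Slc1a3 overlaps Gm37310 on the same strand and Glul overlaps Teddm2 on the other. The part of these markers in the level of Vcam1 was not tested.

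Icam1, the ligand of LFA-1 and Mac-1 on leukocytes (chromosome 9, 20927281 to 20940113), was expressed at a low level. It was at 1.07, 1.26 and 1.94 CPM in PBS, 1.77, 0.710 and 1.40 CPM with fluvastatin, and 1.61, 2.19 and 1.71 CPM with MBV, from 19 to 51 counts per library. The highest PBS library was above 2 of the 3 MBV libraries, and the fluvastatin libraries held the lowest value of all. The log2 fold change was -0.14 with fluvastatin (95% interval -0.91 to 0.63, FDR 0.815) and 0.36 with MBV (-0.25 to 0.97, FDR 0.365), and 0.51 between MBV and fluvastatin (-0.22 to 1.23, FDR 0.609).

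Pecam1 (CD31, chromosome 11, 106545043 to 106641454, - strand), which platelets and myeloid cells also carry, was at 6.47, 7.81 and 9.57 CPM in PBS, 6.47, 12.4 and 10.2 CPM with fluvastatin, and 9.54, 10.96 and 11.4 CPM with MBV. Its fluvastatin libraries were the most scattered, with replicate 1 as low as the lowest PBS library and replicate 2 the highest of all 9. The MBV libraries overlapped PBS only through PBS replicate 3. The log2 fold change of 0.41 with MBV (standard error 0.141) did not pass (FDR 0.0610), and passed without PBS replicate 3 (0.56, FDR 0.0188) and in DESeq2 (0.42, adjusted p 0.0493). With fluvastatin it was 0.29 (FDR 0.383), and it passed without fluvastatin replicate 1 (0.52, FDR 0.0236).

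Among the junction genes, Cdh5 was higher with MBV. Cdh5 encodes VE-cadherin, the adhesion protein of endothelial adherens junctions, on chromosome 8, 104828257 to 104871143. Its level was 4.61, 4.09 and 4.79 CPM in PBS, 5.11, 8.04 and 5.81 CPM with fluvastatin, and 6.29, 6.21 and 9.50 CPM with MBV. All 6 treated libraries were above all PBS libraries, and within each treatment 1 library stood above the other two. With MBV Cdh5 rose by 0.69 on the log2 scale (standard error 0.177, FDR 0.0195, edgeR). The rise was no longer called without PBS replicate 1 (0.71, FDR 0.0638) or 2 (0.64, FDR 0.0713). Without MBV replicate 3, the highest library, it was 0.46 (FDR 0.0212). With fluvastatin the log2 fold change was 0.49 (standard error 0.170, FDR 0.0675), and 0.63 (FDR 0.0114) without fluvastatin replicate 1. Between MBV and fluvastatin it was 0.21 (95% interval -0.27 to 0.69, FDR 0.725).

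Cldn5, the main claudin of barrier endothelium (chromosome 16, 18595597 to 18597012), was at 5.30, 4.71 and 6.65 CPM in PBS, 5.03, 6.84 and 6.02 CPM with fluvastatin, and 6.50, 7.03 and 8.77 CPM with MBV. PBS replicate 3 reached into the range of the MBV libraries. With MBV it differed by 0.41 on the log2 scale (standard error 0.160, FDR 0.0889), a difference that passed without PBS replicate 3 (0.56, FDR 0.0405). With fluvastatin it was 0.11 (95% interval -0.24 to 0.46, FDR 0.677).

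Ocln, a tight junction protein of endothelium and epithelium (chromosome 13, 100633015 to 100689226, - strand), gave a different order of the groups. It was at 5.04, 6.34 and 5.70 CPM in PBS, 4.24, 4.75 and 4.07 CPM with fluvastatin, and 5.22, 6.17 and 6.37 CPM with MBV. The fluvastatin libraries were below all 6 others, and the PBS and MBV libraries overlapped. The difference did not pass either against PBS (log2 fold change -0.39, standard error 0.135, FDR 0.0713) or for MBV against fluvastatin (0.44, standard error 0.140, unadjusted p 0.0112, FDR 0.351, edgeR). MBV and PBS differed by 0.04 (95% interval -0.26 to 0.35).

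Plvap, the gene of the fenestral diaphragm protein (chromosome 8, 71950409 to 71964396, - strand), was at 5.23, 4.71 and 4.83 CPM in PBS, 3.95, 4.41 and 5.17 CPM with fluvastatin, and 4.31, 4.89 and 3.85 CPM with MBV. The groups overlapped in every comparison. Its log2 fold changes were -0.13 with fluvastatin (95% interval -0.43 to 0.18, FDR 0.546), -0.19 with MBV (-0.49 to 0.12, FDR 0.348) and -0.05 between MBV and fluvastatin (-0.41 to 0.31, FDR 0.925), so a rise of over 0.18 with fluvastatin or 0.12 with MBV lies outside these intervals.

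Vwf, encoding von Willebrand factor (chromosome 6, 125523737 to 125663642), gave the largest difference with MBV among the 8 members above the limit of detection. It was at 10.5, 10.8 and 19.2 CPM in PBS, 12.1, 15.7 and 17.5 CPM with fluvastatin, and 20.5, 22.6 and 26.1 CPM with MBV. Every MBV library was above the 6 others, with PBS replicate 3 standing well above the other PBS libraries and above all fluvastatin libraries. Compared to PBS, Vwf rose by 0.77 with MBV (standard error 0.208, FDR 0.0250, edgeR), and this was no longer called without PBS replicate 1 (0.61, FDR 0.0919) or 2 (0.64, FDR 0.0886). With fluvastatin the log2 fold change was 0.17 (95% interval -0.31 to 0.65, FDR 0.624), and 0.51 (FDR 0.0411) without PBS replicate 3. Between MBV and fluvastatin, whose libraries share a set, it was 0.61 (95% interval 0.30 to 0.92). Its unadjusted p of 0.00142 was the smallest of the 10 members there, and the FDR was 0.203 in edgeR and 0.0201 in DESeq2. DESeq2 called 122 genes in this comparison and edgeR 11.

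**Figure D2:**
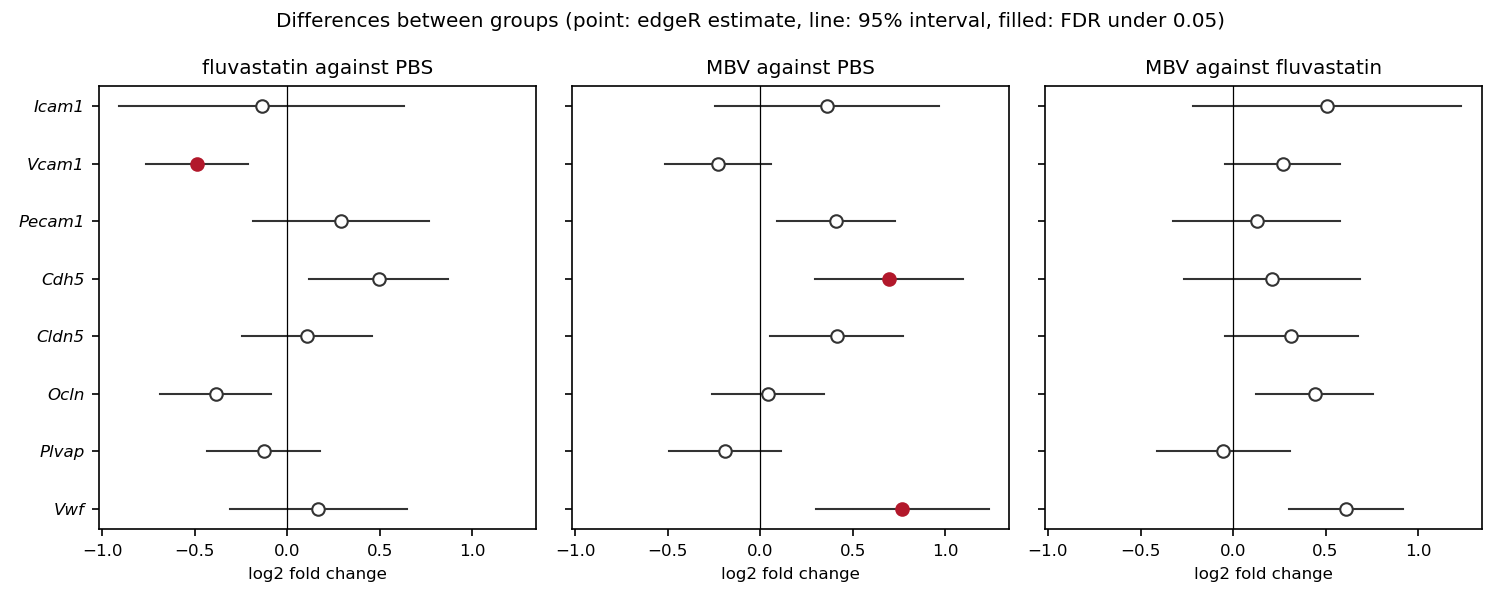
Log2 fold change of 8 genes in the 3 comparisons, with the edgeR estimate as a point and its 95% interval as a line. Filled points have an FDR under 0.05: Vcam1 with fluvastatin at -0.49, and Cdh5 and Vwf with MBV at 0.69 and 0.77. Sele and Selp are not drawn because of their few counts.

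Platelets also hold von Willebrand factor. The 8 platelet markers summed to 11.2 to 11.9 CPM in PBS, 9.93 to 13.9 CPM with fluvastatin and 12.1 to 15.5 CPM with MBV, and Gp6 and Treml1 had at most 3 counts in any library. With MBV, Gp1bb was higher in edgeR (log2 fold change 0.53, FDR 0.0472) and not called in DESeq2 (adjusted p 0.0510), and it overlaps Septin5 on the same strand, so its counts are uncertain. Pf4, the platelet chemokine, had 15, 8 and 8 counts in PBS, 0 in every fluvastatin library, and 1, 0 and 3 with MBV, and was called lower with either treatment in edgeR (FDR 0.00655 and 0.0310), while DESeq2 gave no adjusted p for a gene of so few counts. Markers of red blood cells rose. The 5 erythrocyte markers summed to 6.50 to 8.25 CPM in PBS, 13.4 to 17.0 CPM with fluvastatin and 14.0 to 17.2 CPM with MBV. In either comparison 3 of 5 were called higher, beside 19.6% (fluvastatin) and 26.1% (MBV) of all genes called. The beta-globin gene Hbb-bs was at 3.10 ± 0.270 CPM in PBS, 6.83 ± 1.11 CPM with fluvastatin and 6.00 ± 1.37 CPM with MBV (SD, n = 3). Globin genes have near-identical copies, so the split of counts between them is uncertain. The part of blood in the levels of Vwf and Cdh5 was not tested.

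Compared per kilobase of exon, since genes differ in length, Cldn5 was the highest member at 4.46 ± 0.877 CPM per kb (SD over 9 libraries). Vcam1 followed at 1.80 ± 0.351, Cdh5 at 1.38 ± 0.398, Plvap at 1.20 ± 0.129, Vwf at 1.03 ± 0.326, Pecam1 at 0.942 ± 0.212, Ocln at 0.567 ± 0.0935 and Icam1 at 0.306 ± 0.0920 CPM per kb. Sele and Selp closed the order at 0.0299 and 0.00879 CPM per kb. Between neighbours in this order, the 9 libraries separated Cldn5 from Vcam1 and Icam1 from Sele, and the ranges of all other neighbours overlapped. Lengths are the union of all annotated exons, which understates the level of genes with many isoforms or long rare exons.

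Cldn5, Vwf, Cdh5 and Pecam1 went together from library to library. Pearson's r of log2(CPM + 0.5) over the 9 libraries was 0.918 for Cldn5 and Vwf, 0.862 for Cdh5 and Cldn5, 0.817 for Pecam1 and Cldn5, 0.789 for Pecam1 and Vwf, 0.762 for Pecam1 and Cdh5 and 0.717 for Cdh5 and Vwf. With the group means subtracted, these became 0.841, 0.852, 0.770, 0.755, 0.640 and 0.473. Icam1 and Vcam1, the ligands of leukocyte integrins, had an r of 0.460, and of 0.588 with the group means subtracted. Plvap had negative values with the 7 others, the lowest with Cdh5 (-0.544, and -0.270 with the group means subtracted). With the group means subtracted, its r turned positive with Pecam1 (0.225) and Vwf (0.123), and the lowest was with Vcam1 (-0.574). These values describe 9 libraries that share treatment, library set and tissue content, and no p-value is given.

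**Figure D3:**
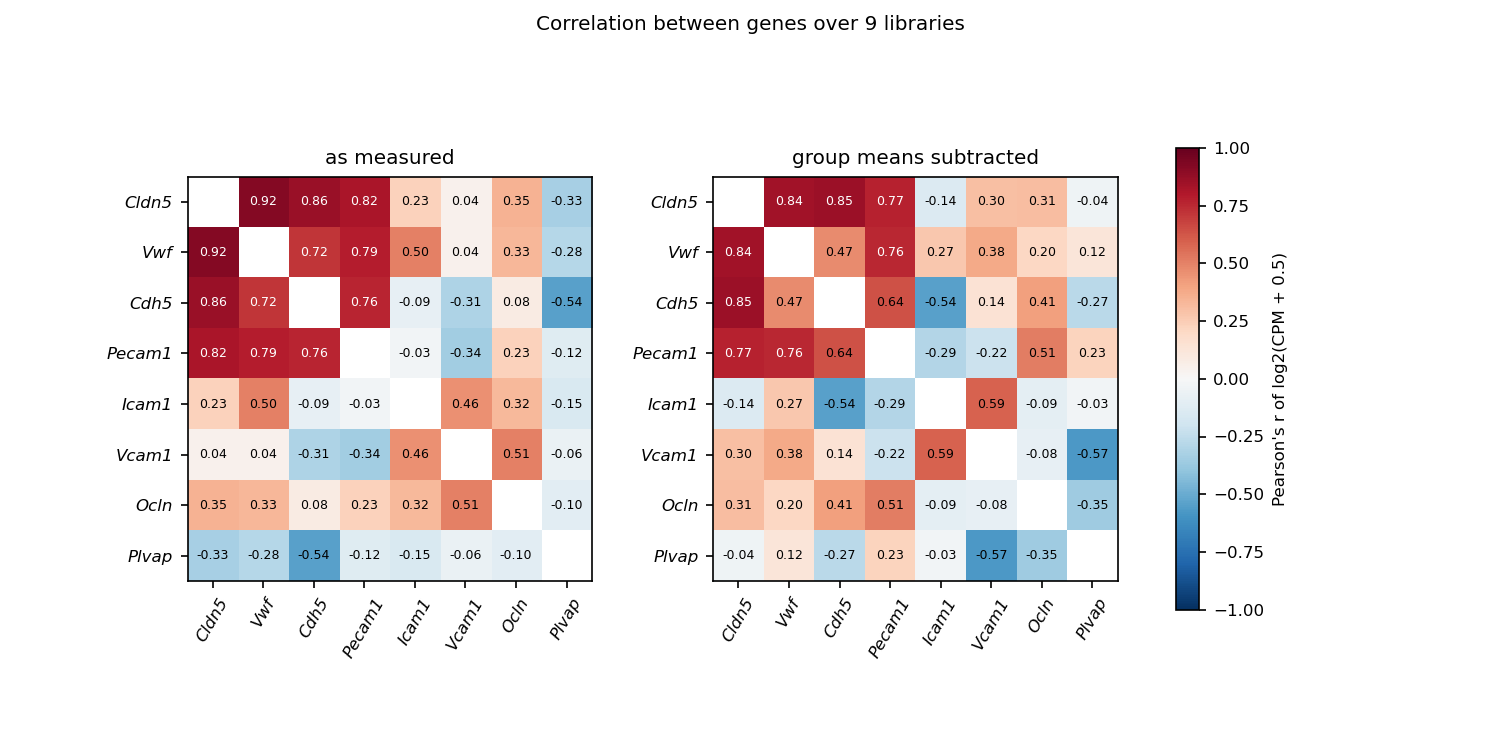
Pearson's r between 8 genes over the 9 libraries, from log2(CPM + 0.5), as measured (left) and with each group's mean subtracted (right). Colour and number both give r. Cldn5, Vwf, Cdh5 and Pecam1 form the block at the upper left, from 0.717 to 0.918 as measured and from 0.473 to 0.852 with group means subtracted.

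The other genes of the barrier moved in both directions. Of 18 further junction and barrier genes, 1 rose and 3 fell with fluvastatin, and 6 rose and 3 fell with MBV. The medians were 0.03 and 0.07, and over all genes 19.6% and 26.1% were called. Lama4, a laminin chain of the vascular basement membrane, rose with both (log2 fold change 0.65 with an FDR of 0.0477, and 0.97 with an FDR of 0.00117). Cav1, the caveolin of endothelial and glial caveolae, fell with both (-0.56 with an FDR of 0.00276, and -0.47 with an FDR of 0.00236), as did Cldn12 (-0.23 with an FDR of 0.0104, and -0.29 with an FDR of 0.0196). The glucose transporter gene Slc2a1 fell with fluvastatin (-0.30, FDR 0.00268, edgeR), and with MBV it was called in DESeq2 only. With MBV Mfsd2a, which restrains transcytosis in barrier endothelium, rose from 1.44 ± 0.273 to 2.69 ± 0.442 CPM (SD, n = 3; log2 fold change 0.90, FDR 0.0168). Several of these genes are also expressed in retinal neurons, glia and pigment epithelium.

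Of 12 further vessel-wall adhesion genes, 11 were in the tables. With fluvastatin 2 rose and 1 fell, and with MBV 3 rose and 1 fell (medians 0.14 and 0.30). The shares called over all genes were 19.6% and 26.1%. Mcam (CD146) was at 5.75 ± 0.618 CPM in PBS, 10.6 ± 2.01 CPM with fluvastatin (log2 fold change 0.88, FDR 0.00299) and 11.9 ± 2.05 CPM with MBV (1.05, FDR 0.00121). Podxl rose by 0.23 with fluvastatin (FDR 0.0340) and by 0.17 with MBV (FDR 0.0468). Glycam1, a ligand of L-selectin, was at 0.725 ± 0.249 CPM in PBS and was lower with either treatment, at 0.177 and 0.106 CPM (FDR 0.0306 and 0.0238, edgeR), with no adjusted p from DESeq2 for fluvastatin. Its counts were 30, 14 and 19 in PBS, 9, 2 and 2 with fluvastatin, and 0, 6 and 1 with MBV. The treated levels are thus near the limit of detection. Ackr1 was called higher with MBV (0.40, FDR 0.00535) but overlaps Cadm3 on the same strand, so its counts are uncertain.

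On the side of the leukocytes, none of 11 counter-receptor genes was called with fluvastatin in edgeR or DESeq2, with 0 at an unadjusted p under 0.05. With MBV 2 rose, and 10 of 11 had a log2 fold change above 0 (median 0.65). Over all genes tested, 19.6% were called with fluvastatin. With MBV 26.1% were called, and 51.1% had a log2 fold change above 0. Itgal, the LFA-1 subunit that binds ICAM-1, was at 0.462 ± 0.233 CPM in PBS and 1.30 ± 0.574 CPM with MBV (log2 fold change 1.50, FDR 0.0327). Its counts were 12, 8 and 19 in PBS replicates 1 to 3 and 27, 21 and 46 with MBV, highest in MBV replicate 3. Itga4, the VLA-4 subunit that binds VCAM-1, rose by 0.31 (FDR 0.0260) but overlaps Cerkl on the other strand, so its counts are uncertain. Itga4 was at 143 ± 10.2 CPM in PBS and 179 ± 20.9 CPM with MBV. Which cells carry it was not tested. Monocyte and macrophage markers summed to 10.7 to 23.2 CPM in PBS and 6.11 to 9.05 CPM with fluvastatin. With MBV the sums were 6.44, 12.5 and 82.7 CPM, the last in MBV replicate 3. None of the 9 monocyte markers was called with MBV in edgeR (2 at an unadjusted p under 0.05) or DESeq2, and Lyz2 fell with fluvastatin (-1.31, FDR 0.0240). Neutrophil markers summed to at most 5.22 CPM in any library, the neutrophil-defining gene Ly6g was at 0 counts in all 9 libraries, and S100a8 fell with fluvastatin in edgeR (FDR 0.0393), with no adjusted p from DESeq2. Microglia markers summed to 66.7 to 91.7 CPM over the 9 libraries.

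**Figure D4:**
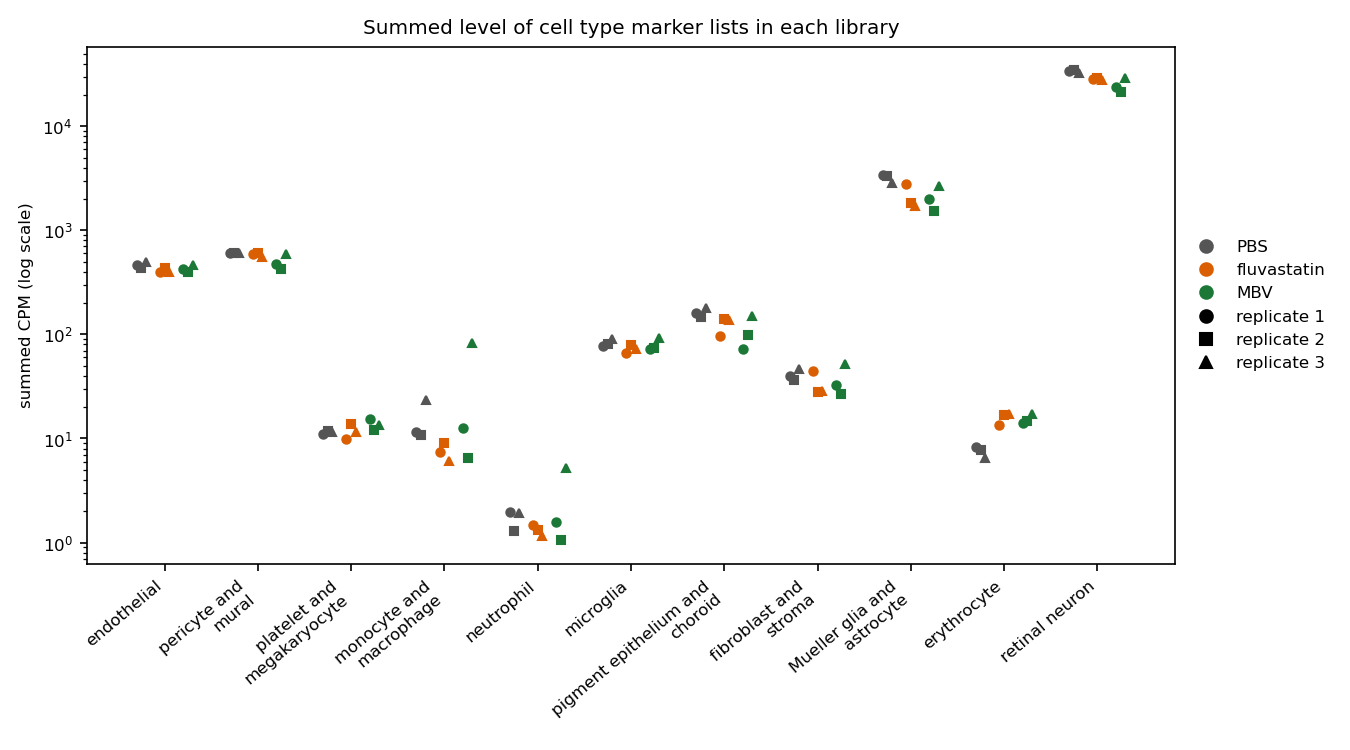
Summed CPM of each list of cell type markers in each library, on a log axis. Colours give the group and symbols the replicate. MBV replicate 3 stands out in monocyte markers at 82.7 CPM, and the erythrocyte sums of all 6 treated libraries (13.4 to 17.2 CPM) lie above those of PBS (6.50 to 8.25 CPM).

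Of 21 genes of NF-kB and cytokine signalling, which drives adhesion genes in endothelium, 0 rose and 1 fell with fluvastatin. With MBV 2 rose and 2 fell, and the medians were 0.02 and 0.22. The shares called over all genes were 19.6% with fluvastatin and 26.1% with MBV. Il33 was at 66.6 ± 6.66 CPM in PBS, 42.0 ± 9.84 CPM with fluvastatin (log2 fold change -0.67, FDR 0.00947) and 47.2 ± 2.47 CPM with MBV (-0.50, FDR 0.00184). With MBV the NF-kB subunit genes Nfkb1 (0.32, FDR 0.0135) and Nfkb2 (0.84, FDR 0.0175) rose, and Tnfaip3, the gene of the NF-kB inhibitor A20, fell in edgeR (-0.44, FDR 0.0470) and was not called in DESeq2 (adjusted p 0.0931). Nfkb1 overlaps Gm43430 on the same strand and Nfkb2 overlaps Psd on the other, so the counts of both are uncertain. Of 13 genes of VEGF and angiopoietin signalling, 1 rose and 1 fell with fluvastatin and 3 rose with MBV. The same shares over all genes stand beside this list. Vegfa, the permeability factor, was at 101 ± 0.783 CPM in PBS, 145 ± 16.6 CPM with fluvastatin (0.51, FDR 0.00167) and 153 ± 12.5 CPM with MBV (0.59, FDR 0.000531). With MBV the endothelial phosphatase gene Ptprb (0.67, FDR 0.00413) and Pgf (1.46, FDR 0.0125) rose as well. With fluvastatin Ptprb was called in DESeq2 only. Ptprb overlaps Gm47625 on the same strand, so its counts are uncertain.

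Pericytes share the vessel wall with the endothelium. None of 10 mural markers was called with fluvastatin in edgeR (3 at an unadjusted p under 0.05) or DESeq2, where 8 of 10 had a log2 fold change above 0 (median 0.26). With MBV, Des, Kcnj8 and Abcc9 rose (1.20, 0.99 and 0.60, with FDRs of 0.0179, 0.0274 and 0.0478) and Vtn, which photoreceptors also express, fell (-0.43, FDR 0.0238). Over all genes, 19.6% were called with fluvastatin and 26.1% with MBV. Between MBV and fluvastatin, edgeR called no gene of any list of pathway or marker genes, with 0 to 5 genes of a list at an unadjusted p under 0.05. DESeq2 called 1, the fibroblast marker Col1a1. All 11 counter-receptors (median 0.70) and all 9 monocyte markers (median 2.45) had a log2 fold change above 0 there. None of the 10 pigment epithelium and choroid markers had (median -0.29), and over all genes 53.0% had. MBV replicate 3 held the highest monocyte sum, at 82.7 CPM.

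Markers of tissue next to the retina also moved. The pigment epithelium and choroid markers summed to 148 to 180 CPM in PBS, 97.4 to 142 CPM with fluvastatin and 72.6 to 150 CPM with MBV, and they did not move one way. Of 10, 5 fell and 2 rose with fluvastatin, and 5 fell and 1 rose with MBV. The shares called over all genes were 19.6% and 26.1%. Pmel fell in both (-2.01 with an FDR of 9.23e-05, and -2.44 with an FDR of 0.000307), and shares its locus with Cdk2 and Dgka, which lie on the opposite strand. Fibroblast markers summed to 36.8 to 46.4 CPM in PBS, 27.7 to 44.5 CPM with fluvastatin and 26.8 to 52.4 CPM with MBV. Of 6, 3 fell and 1 rose with fluvastatin, and 1 fell and 2 rose with MBV in edgeR. DESeq2 called 1 of them with fluvastatin and 4 with MBV. The choroid carries the fenestrated vessels in which Plvap is found, and the part of these markers in the levels of Plvap and the other members was not tested.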

How the data were processed

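Whole-retina RNA was sequenced 2 days after ONC as 75-base paired-end reads of total RNA libraries. Alignment and counting were done by the authors in CLC Genomics Workbench on GRCm39. Their deposited tables hold raw counts per gene, not normalized, beside their own comparisons (fold changes, p-values and FDRs), which were not used. Counts were read for 9 libraries whose columns name them. The 6 count columns deposited for the comparison that holds the combined treatment name no library and were not used. The comparisons that need them were therefore not run.

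Counts were analysed with edgeR 4.0.16 and DESeq2 1.42.0 in R 4.3.3, and with Python 3.11.15. For each comparison, genes with at least 1 count in its 6 libraries entered a quasi-likelihood fit of the 2 groups after TMM normalization. The procedure was also run on simulated counts, with a common spread for all genes and changes larger than those of the called members. That run therefore does not bear on the calls of members. The study calls its replicates biological, without giving the animals behind each library, and p-values measure the spread between these libraries. Exon lengths and the genes that overlap members are from GENCODE (GRCm39). For all other genes, overlaps were looked up among the gene positions deposited with the counts. Overlaps of those genes that only GENCODE annotates were therefore not looked for.

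The 10 members, the other gene lists and the tests were chosen with earlier results of these data known. All members are named; of other lists, at most the 4 called genes with the smallest FDR, each given in both comparisons to PBS where it was called. Some genes that these rules name are not reported here. Alternatives were DESeq2, RLE scaling, no TMM for the levels, a minimum of 10 counts in 2 libraries, a replicate block, 1 fit of all 9 libraries, a fold change of at least 2, each replicate left out, and group means subtracted for correlations.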

Additional observations from a re-analysis of the deposited data

How the results depend on the processing

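With MBV against PBS, 2 members were called, and leaving out 1 replicate gave 0 to 4. With fluvastatin against PBS, 1 was called, and leaving out 1 replicate gave 0 to 3. A fold change of at least 2 left 0 members in each comparison to PBS. DESeq2 called 1 member, Vwf, between MBV and fluvastatin, where edgeR called 0. RLE scaling, the count minimum and 1 fit of all 9 libraries changed no call of a member. The replicate numbers did not pair the libraries: in the 3 comparisons 2, 0 and 0 of 6 libraries correlated best with their own number, and the correlations of deviations ran from -0.429 to 0.190. With the replicate block, 4 members were called with MBV against PBS (Vwf, Cdh5, Pecam1 and Cldn5), and the counts of 1 and 0 in the other comparisons did not move. The cause was not tested.

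Of the log2 fold changes of members, 14 turned sign, each when 1 library was left out and none of them called. Over the libraries left out, the values ran from -0.88 to 0.58 for Selp and from -0.039 to 0.14 for Ocln with MBV against PBS. With fluvastatin against PBS they ran from -0.44 to 0.17 for Icam1, from -0.012 to 1.45 for Selp and from -0.0045 to 0.26 for Cldn5. Between MBV and fluvastatin they ran from -1.25 to 0.35 for Sele, from -0.094 to 0.35 for Pecam1, from -0.019 to 0.42 for Cdh5 and from -0.14 to 0.046 for Plvap. Group levels moved by less than 1 SD under RLE scaling or without TMM, in 60 of 60 cases.

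The comparisons named for the combined treatment, for effects balanced over the library sets and for the sets themselves were not run. Depth limits Sele and Selp.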

Other observations

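Genes whose levels followed single members most closely over the 9 libraries were taken from 13971 genes with a mean of at least 1 CPM, by Pearson's r of log2(CPM + 0.5). For Vcam1 they were Timp2 (r = 0.975), Gbp6 (0.966) and Tnxb (0.952), for Icam1 Rab7b (0.950), Hgh1 (0.921) and Map2k3 (0.915). For Vwf they were Itga6 (0.959), Ehd1 (0.957) and Lyn (0.948), for Cdh5 Ak5 (0.980), Lingo2 (0.969) and Fam168a (0.968). Those given for Cldn5 were Cspg4 (0.956) and C1qb (0.950), for Pecam1 Gng7 (0.973), Cblb (0.963) and Itgbl1 (0.961). For Ocln they were Slc26a8 (0.948), Vwc2 (0.914) and Elk3 (0.909), and for Plvap Srp54b (0.924), Gpd2 (0.924) and Aida (0.910). With the group means subtracted, r for these genes lay between 0.828 (Vwc2 with Ocln) and 0.974 (Lingo2 with Cdh5). They were picked as the 3 highest of many genes over 9 libraries, so values this high are given as a description, with no p-value.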
